A study of Mus musculus with 10 samples.

Results

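The proteases that digest protein in the lysosome were followed in an immortalized mouse macrophage line lacking Toll-like receptor 9 (TLR9) and in a wild-type line, with and without β-1,3 glucan beads. The set held 10 named genes of the 19938 measured: the cathepsins Ctsa, Ctsb, Ctsc, Ctsd, Ctsh, Ctsl, Ctss and Ctsz, the asparaginyl endopeptidase Lgmn (legumain), and Cst3 (cystatin C), which is an inhibitor and no protease. They were taken by name, not by their values, and all 10 were found, each on 1 probe set annotated to that gene alone. Of the 10 arrays, 3 came from unstimulated wild-type B6 cells, 3 from wild-type B6 cells given beads, 2 from unstimulated TLR9 knockout cells and 2 from TLR9 knockout cells given beads. Beads, particles made of a fungal cell wall polysaccharide, were added at 20 per cell for 4 h. Every group consisted of immortalized macrophages plated in the same way, and each genotype was 1 line, so that genotype and other differences between the lines cannot be told apart. Whether arrays within a group stand for separate cultures is not stated; p-values therefore measure the spread among these arrays, which may be technical.

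Cathepsins are made as inactive precursors, tagged with mannose 6-phosphate in the Golgi, delivered to endosomes and lysosomes, and activated there at low pH by removal of their propeptides. Most belong to the papain family of cysteine proteases, while Ctsd is an aspartic protease and Ctsa a serine carboxypeptidase. In macrophages and other antigen-presenting cells they cut the invariant chain that blocks the MHC class II groove, prepare peptides for presentation, and cut the ectodomains of endosomal Toll-like receptors, TLR9 among them, into their signalling form. Cystatin C, a secreted protein, binds the active site of papain-family enzymes.

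The values are log2 signals made by the authors with RMA, and differences are on that log2 scale. A linear model (limma) with 4 group means was fitted to all genes, and a gene passed when its p, adjusted by Benjamini-Hochberg across the 19938, was under 0.05. Wild-type bead array 3 stood apart from the others: its mean Pearson r across genes with its group mates was 0.973, against 0.985 to 0.997 for the other 9 arrays. It read lower than bead arrays 1 and 2 for all 10 of the set, where the same held for 40.0% of all genes and for 87.8% of the 2232 genes with a mean of at least 9. For the 10 genes, differences that use it are therefore given with and without it, and those of other genes include it. Comparisons of groups without this array still draw their SEs and adjusted p-values from a spread that includes it. The probe set for Tlr9 read 6.91 to 7.44 on the wild-type arrays and 7.31 to 7.62 on the knockout arrays; no source used here places it relative to the deleted part, so it does not check the labels. Of 12 macrophage markers none lay below the 25th percentile on all arrays of any group. Among them 4 (Adgre1, Csf1r, Fcgr1 and Cd14) were higher and 1 (Mertk) lower in the knockout line, both without and with beads. Of all genes, 3.79% were higher and 4.46% lower without beads, and 3.82% higher and 3.4% lower with beads. The mean level of the 12 markers was 10.85 to 10.99 in unstimulated knockout against 10.41 to 10.48 in unstimulated wild-type arrays. After the beads the values were 10.71 to 10.91 against 10.10 to 10.64; the part of these shifts in the results was not tested. Of the markers of other cell types, 0 of 8 dendritic cell, 0 of 8 granulocyte, 0 of 7 lymphocyte and 0 of 8 fibroblast markers passed in limma in any comparison. Their mean levels ran from 4.67 to 6.07 over the arrays. The top value was that of the fibroblast markers on wild-type bead array 3. For genes with a mean of 5 to 7, that array read a median of 0.41 above the mean of bead arrays 1 and 2. For those under 5 it read 0.20 above. Xcr1, Clec9a, Cd209a, Ly6g, Cd79a, Ms4a1, Ncr1, Cd3d and Lum lay below the 25th percentile on every array. The other markers of these lists did not. Col1a1 (6.34 to 7.19), Col1a2 (6.63 to 7.54) and Col3a1 (6.42 to 7.17) lay above the median over probe sets of every array. So did the dendritic cell markers Itgax (6.63 to 7.09), Zbtb46 (5.88 to 6.90) and Ccr7 (5.81 to 6.82). In bulk RNA, fewer cells of a kind and less RNA per cell cannot be told apart.

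The promoter stretches of the 3 genes that differed between the lines, and of 2 that did not pass, are shown so that the letters around their start sites can be set side by side. Those 2, Ctsd and Ctsa, are the genes of the set that hold the motif TCACGTGA. Ctsc, Ctsz and Lgmn did not pass either and are not printed, so the stretches do not compare passing genes with the rest. The printed stretches run from 250 bases before to 12 bases after the start of transcription, as RefSeq gives it on GRCm38.p6. Ctss lies at chr3:95526536-95526797 on the plus strand, Ctsl at chr13:64370509-64370770 on the minus strand, Cst3 at chr2:148875501-148875762 on the minus strand, Ctsd at chr7:142387816-142388077 on the minus strand and Ctsa (the second of its 2 listed starts) at chr2:164833523-164833784 on the plus strand. Capitals mark every match to any of the 8 motifs searched, on either strand.
Ctss: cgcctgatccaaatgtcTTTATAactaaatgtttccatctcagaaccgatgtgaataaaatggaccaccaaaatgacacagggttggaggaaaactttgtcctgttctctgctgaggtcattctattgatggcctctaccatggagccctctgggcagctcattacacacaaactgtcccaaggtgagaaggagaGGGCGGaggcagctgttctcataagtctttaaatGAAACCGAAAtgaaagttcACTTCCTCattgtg
Ctsl: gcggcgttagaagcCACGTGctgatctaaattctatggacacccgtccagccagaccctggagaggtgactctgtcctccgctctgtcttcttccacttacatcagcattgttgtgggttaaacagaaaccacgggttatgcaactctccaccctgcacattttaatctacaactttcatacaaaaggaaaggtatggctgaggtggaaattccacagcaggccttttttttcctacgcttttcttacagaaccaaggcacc
Cst3: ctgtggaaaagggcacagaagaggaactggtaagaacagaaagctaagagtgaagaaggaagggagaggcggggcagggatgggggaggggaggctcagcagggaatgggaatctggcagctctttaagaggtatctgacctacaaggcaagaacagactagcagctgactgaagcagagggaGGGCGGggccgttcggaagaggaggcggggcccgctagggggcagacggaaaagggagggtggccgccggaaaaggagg
Ctsd: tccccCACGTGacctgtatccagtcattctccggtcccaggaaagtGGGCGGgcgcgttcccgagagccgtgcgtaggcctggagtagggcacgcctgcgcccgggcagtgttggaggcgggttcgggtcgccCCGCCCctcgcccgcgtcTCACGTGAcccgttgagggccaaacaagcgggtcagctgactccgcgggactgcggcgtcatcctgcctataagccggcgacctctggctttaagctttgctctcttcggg
Ctsa: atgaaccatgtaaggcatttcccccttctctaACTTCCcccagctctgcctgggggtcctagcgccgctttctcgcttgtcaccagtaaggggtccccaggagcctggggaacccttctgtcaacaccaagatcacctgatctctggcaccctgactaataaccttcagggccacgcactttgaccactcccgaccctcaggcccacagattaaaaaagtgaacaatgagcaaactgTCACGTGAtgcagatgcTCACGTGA

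The motifs searched on both strands were the E-box core CACGTG of the CLEAR element, through which the factor TFEB and its relatives drive lysosome genes, and its longer form TCACGTGA. The interferon-stimulated response element was searched next, and GAGGAAGT, a site for PU.1, the master factor of macrophages. Its shorter core GGAAGT is shared by the Ets family. The AP-1 motif was TGANTCA, the site of Fos and Jun proteins. The TATA box, where general transcription factors bind, was searched as TATAAA. The factor Sp1, which acts at many GC-rich promoters, was represented by GGGCGG. The E-box core lies within its longer form, and the Ets core within the PU.1 motif, so that those matches overlap. RefSeq promoter windows were listed for 8 of the 10 genes, Ctsb and Ctsh being the others. Ctss held GAAACCGAAA, whose first base lay 21 bases before the start, and ACTTCCTC, the Ets motif on the other strand, 2 bases before it. The response element was matched in 3.27% of the 19177 windows of all measured genes, and among the set in Ctss. The Ets motif GAGGAAGT was matched in 2.77% of windows, and in the set in Ctss and Ctsc. TCACGTGA was matched in 1.32% of windows, and in the set in Ctsd, 99 bases before the start, and in Ctsa, 13 bases before the start and again at position 5 after it. The shorter CACGTG (8.24% of windows) also stood in Ctsl, 236 bases before the start, and in Lgmn. Cst3 held none of these and had GGGCGG, 67 bases before the start, which 49.2% of windows hold. GGGCGG was matched in 6 of the 8 genes with a window, against 52.9% of all genes with one. The core GGAAGT (24.8% of windows) stood in Ctss, Ctsc and Ctsa, and TATAAA (11.5%) in Ctss and Lgmn. TGANTCA, found in 6.90% of windows, was matched in none of the set. A match describes letters in the window and is not evidence of binding.

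Without beads, 3 of the 10 genes were higher in the knockout line and 0 were lower. They were Ctss (3.20-fold), Cst3 (2.07-fold) and Ctsl (1.61-fold); of all genes, 8.25% passed, 3.79% higher and 4.46% lower. With beads the same 3 passed, at 3.34-fold, 1.94-fold and 1.94-fold, where 7.22% of all genes passed, 3.82% higher and 3.4% lower. The other 7 genes, Ctsa, Ctsb, Ctsc, Ctsd, Ctsh, Ctsz and Lgmn, did not pass in either comparison. The median difference over the 10 was 0.08 without and 0.03 with beads, against 0.02 and -0.01 over all genes. The comparisons without and with beads share no arrays, but their SEs and p-values share 1 spread estimated over all 10 arrays. They are thus not independent tests. For the unstimulated lines, omitting wild-type bead array 3 took the SE of Ctss from 0.12 to 0.08. That of Ctsl went from 0.11 to 0.08, and that of Cst3 from 0.15 to 0.09. All 3 still passed.

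**Figure D1:**
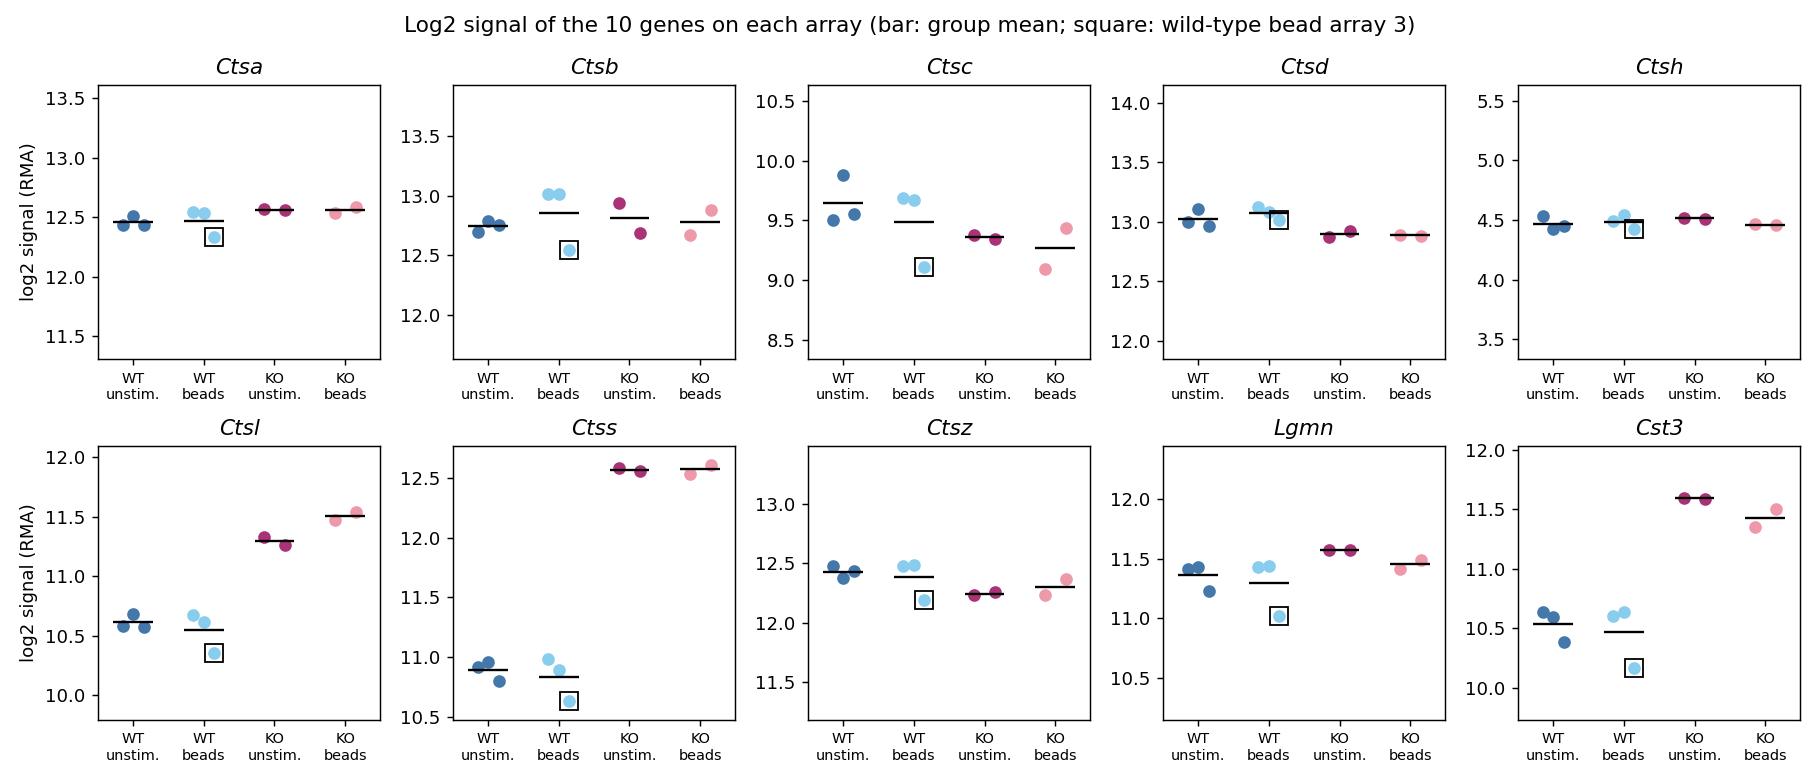
Log2 signal of each of the 10 genes on each of the 10 arrays (points), by group on the horizontal axis, with the group mean as a bar; WT is wild type and KO is TLR9 knockout, and every panel spans the same number of log2 units. Ctss, Ctsl and Cst3 sit higher on all 4 knockout arrays than on all 6 wild-type arrays, and wild-type bead array 3 (square) is the lowest of its group in every panel.

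Ctss encodes cathepsin S, an endopeptidase that stays active at neutral pH and carries out the last cut of the invariant chain; its transcription is raised by interferon. Its log2 signal (probe set 10494271) was 10.92, 10.96 and 10.80 in wild-type cells without beads and 12.58 and 12.56 in knockout cells without beads. In bead-treated cells the arrays gave 10.98, 10.90 and 10.63 for wild type, and 12.53 and 12.61 for knockout. All 4 knockout arrays lay above all 6 wild-type arrays, and the arrays within a line lay close together. The difference was 1.68 ± 0.12 (SE; 95% interval 1.42 to 1.94; adjusted p = 2.71e-05, limma) without beads and 1.74 ± 0.12 (adjusted p = 2.53e-05) with beads. Without wild-type bead array 3 the latter was 1.64 ± 0.09. Ctss passed under all 19 alternative settings in each comparison, at 1.63 to 1.76 without and 1.64 to 1.81 with beads.

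Ctsl encodes cathepsin L, an endopeptidase with broad specificity that cuts the invariant chain in the thymic epithelium and processes other lysosomal enzymes. For Ctsl (probe set 10410124) the signal was 10.58, 10.69 and 10.57 in unstimulated wild type and 11.33 and 11.26 in unstimulated knockout cells. With beads it was 10.68, 10.61 and 10.36 (wild type) against 11.47 and 11.54 (knockout). The lines did not overlap in either state, and the knockout bead arrays were the highest of all 10. The difference between the lines was 0.68 ± 0.11 (95% interval 0.43 to 0.93; adjusted p = 0.00485, limma) without beads and 0.95 ± 0.11 (0.70 to 1.20; adjusted p = 7.10e-04) with beads. The call without beads ended after centring the arrays on their medians (0.64, adjusted p = 0.139) and without unstimulated knockout array 1 (0.65, adjusted p = 0.0627), the range over the alternatives being 9.38e-06 to 0.139. The call with beads held throughout, and without wild-type bead array 3 the difference was 0.86 ± 0.09.

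Ctsb encodes cathepsin B, which acts as an endopeptidase and also trims dipeptides from the carboxyl end. Ctsb (probe set 10415844) read 12.70, 12.79 and 12.75 in unstimulated wild type and 12.94 and 12.68 in unstimulated knockout cells. After the beads the values were 13.02, 13.02 and 12.54 (wild type) against 12.67 and 12.88 (knockout). The groups overlapped in each comparison, and wild-type bead array 3 lay below its group mates. The difference between the lines was 0.07 ± 0.16 without beads (95% interval -0.29 to 0.42) and -0.08 ± 0.16 with beads (-0.44 to 0.28). Without wild-type bead array 3 the latter was -0.24 ± 0.11, still not past the threshold, and the knockout bead arrays then lay below the other wild-type bead arrays.

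Ctsc, Ctsh and Ctsz encode the papain-family enzymes that act mainly on the ends of proteins. Ctsc, cathepsin C or dipeptidyl peptidase I, removes dipeptides from the amino end and activates the serine proteases of granules. Ctsc (probe set 10554789) read 9.51, 9.88 and 9.56 in unstimulated wild type and 9.38 and 9.34 in unstimulated knockout cells, and with beads 9.69, 9.67 and 9.11 against 9.10 and 9.44. The unstimulated knockout arrays lay below the wild-type arrays, but the difference of -0.29 ± 0.20 (95% interval -0.73 to 0.16) did not pass (adjusted p = 0.626, limma). With beads it was -0.22 ± 0.20, and -0.42 ± 0.14 without wild-type bead array 3 (adjusted p = 0.0621, limma). It passed with array weights (-0.41, adjusted p = 0.0136, limma), where 6083 of all genes passed, against 1439 without them. The weights of wild-type bead arrays 3 and 2 were 0.07 and 12.1.

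Ctsz, cathepsin Z or X, is a carboxypeptidase that removes single residues. Probe set 10490212 for Ctsz read 12.47, 12.38 and 12.43 in unstimulated wild type against 12.24 and 12.26 in unstimulated knockout cells, groups that did not overlap, and 12.47, 12.48 and 12.19 against 12.23 and 12.37 with beads. The difference was -0.18 ± 0.11 (-0.43 to 0.07) without and -0.08 ± 0.11 with beads, and neither passed. The value with beads was -0.18 ± 0.09 without wild-type bead array 3 (adjusted p = 0.174, limma). After quantile normalisation of the table it was -0.29 without beads and passed (adjusted p = 0.0139, limma).

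Ctsh, cathepsin H, is an aminopeptidase that matures surfactant protein in the lung. On probe set 10587733 Ctsh ran from 4.42 to 4.55 on all 10 arrays and lay below the 25th percentile of each. Differences in it are thus read at the low end of the scale, and the files used here hold no detection calls; the difference between the lines was 0.05 ± 0.09 without and -0.03 ± 0.09 with beads (-0.06 ± 0.08 without wild-type bead array 3).

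Among the enzymes outside the papain family, Ctsd encodes cathepsin D, the major aspartic endopeptidase of lysosomes. Ctsd (probe set 10569319) gave 13.00, 13.11 and 12.97 in unstimulated wild type and 12.88 and 12.92 in unstimulated knockout cells. In bead-treated cells the arrays gave 13.12, 13.08 and 13.02 against 12.89 and 12.88. All 4 knockout arrays lay below all 6 wild-type arrays. The difference was nevertheless small, -0.13 ± 0.09 without (95% interval -0.33 to 0.07; adjusted p = 0.614, limma) and -0.19 ± 0.09 with beads (-0.39 to 0.01; adjusted p = 0.349), and did not pass. The latter was -0.22 ± 0.08 without wild-type bead array 3 (adjusted p = 0.0975, limma). Quantile normalisation gave -0.22 without beads, which passed (adjusted p = 0.0484, limma).

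Ctsa encodes cathepsin A or protective protein, a carboxypeptidase that also holds β-galactosidase and the sialidase Neu1 together in a complex. For Ctsa, probe set 10478594 gave 12.43, 12.51 and 12.44 in unstimulated wild type and 12.57 and 12.56 in unstimulated knockout cells, and with beads 12.55, 12.54 and 12.34 against 12.54 and 12.58. The difference was 0.10 ± 0.10 without beads (-0.11 to 0.32) and 0.09 ± 0.10 with beads (-0.13 to 0.30), and did not pass. The difference with beads was 0.02 ± 0.08 without wild-type bead array 3.

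Lgmn encodes legumain, which cuts after asparagine, starts the breakdown of the invariant chain and can cut the TLR9 ectodomain. Lgmn (probe set 10402268) read 11.42, 11.43 and 11.23 in unstimulated wild type and 11.58 and 11.57 in unstimulated knockout cells. With beads it was 11.43, 11.44 and 11.02 (wild type) against 11.41 and 11.49 (knockout). The unstimulated lines did not overlap, by a difference of 0.21 ± 0.14 (95% interval -0.10 to 0.52) that did not pass (adjusted p = 0.577, limma). With array weights it was 0.30 and passed (adjusted p = 0.0228, limma), where 4451 of all genes passed, against 1645 without them. With beads it was 0.15 ± 0.14, and 0.02 ± 0.09 without wild-type bead array 3.

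Cst3 encodes cystatin C, the secreted inhibitor of papain-family cathepsins, Ctss and Ctsl among them. Cst3 (probe set 10488415) stood at 10.64, 10.60 and 10.39 in unstimulated wild type and 11.60 and 11.59 in unstimulated knockout cells. After the beads the values were 10.61, 10.64 and 10.17 (wild type) against 11.35 and 11.50 (knockout). All 4 knockout arrays lay above all 6 wild-type arrays. The difference was 1.05 ± 0.15 without beads (95% interval 0.72 to 1.39; adjusted p = 0.00225, limma), and 0.96 ± 0.15 with beads (0.62 to 1.29; adjusted p = 0.00412). The call with beads ended after centring on the median (0.94, adjusted p = 0.0723), without knockout bead array 2 (0.88, adjusted p = 0.0606) and in a fit of the bead groups alone (0.96, adjusted p = 0.0708), the range over the alternatives being 9.91e-05 to 0.0723. Without wild-type bead array 3 it was 0.81 ± 0.10.

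**Figure D2:**
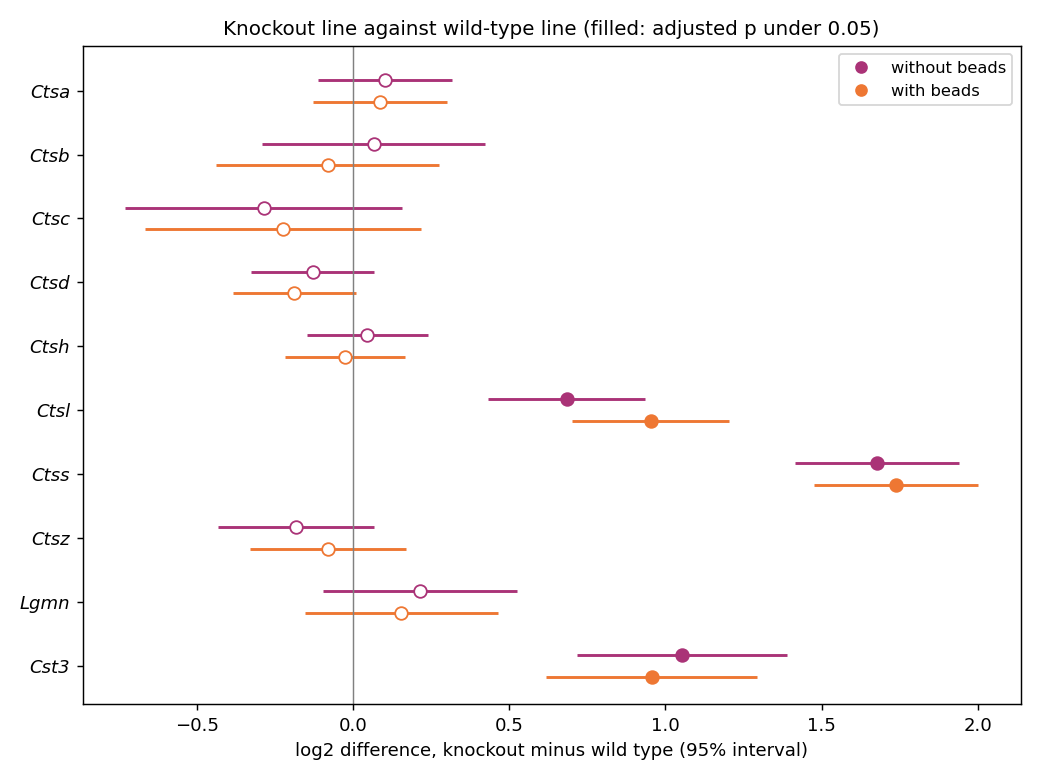
Difference between the lines (knockout minus wild type, log2 units, horizontal axis) for each of the 10 genes, without beads and with beads, with the 95% interval of the fit as a line; filled points passed. Ctss (1.68 and 1.74), Cst3 (1.05 and 0.96) and Ctsl (0.68 and 0.95) lie to the right of 0, and the intervals of the other 7 genes include 0.

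Counted by arrays that did not overlap, 8 of the 10 genes separated the unstimulated lines, where 38.8% of all genes did. Besides the 3 that passed, Ctsa and Lgmn read higher and Ctsc, Ctsd and Ctsz lower in the knockout arrays. With beads 4 of the 10 separated, against 23.6% of all genes: Ctss, Ctsl, Cst3 and Ctsd. This count rested on wild-type bead array 3: without it 8 of the 10 separated, Ctsb, Ctsc, Ctsh and Ctsz being added as lower, against 64.5% of all genes.

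The glucan beads were followed by no call among these genes in either line. In wild-type cells limma passed 0 of the 10 and 0% of all genes; at an unadjusted p under 0.05 it passed 0 of the 10 and 167 of 19938. The differences (beads minus unstimulated) ran from -0.16 ± 0.18 for Ctsc to 0.11 ± 0.14 for Ctsb, with 4 of 10 above 0 and a median of -0.05. The groups overlapped for all 10, where 3.53% of all genes did not overlap. Without wild-type bead array 3, Ctsa and Ctsb (2 of 10) separated, against 33.5% of all genes. Without wild-type bead array 3 all 10 differences lay above 0, from 0.03 ± 0.13 for Ctsc and 0.03 ± 0.08 for Ctsl to 0.27 ± 0.10 for Ctsb. None passed (lowest adjusted p = 0.389, for Ctsb, limma). That array was the lowest of its group for all 10, as for 87.8% of the 2232 genes with a mean of at least 9. Leaving it out raises the bead mean of each gene it read lowest for, so the shared sign is not shown to be particular to the set. The share of all genes above 0 was not counted. Ctsb and Ctsd passed with array weights, and so did Lgmn and Cst3, with their sign turned. These weights gave array 3 a weight of 0.07 and bead array 2 one of 12.1, and their estimation stopped before it converged.

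In knockout cells limma passed 0 of the 10 and 0% of all genes; at an unadjusted p under 0.05 it passed 0 of the 10 and 359 of 19938. Ctsl had the largest difference of the set, 0.20 ± 0.12 (95% interval -0.07 to 0.48), and both of its bead arrays lay above both unstimulated arrays. Cst3 (-0.17 ± 0.16), Lgmn (-0.12 ± 0.15) and the low-signal Ctsh (-0.05 ± 0.09) lay below on both bead arrays. These 4 of 10 stand beside 24.4% of all genes whose knockout groups did not overlap. Ctss was at 0.00 ± 0.13 (-0.28 to 0.29). The median of the set was -0.02.

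The difference between the bead responses, tested as an interaction, passed for 0 of the 10 and for 0% of all genes in limma; at an unadjusted p under 0.05 it passed 0 of the 10 and 172 genes. It was largest for Ctsl, at 0.27 ± 0.16 (95% interval -0.09 to 0.62), and 0.17 ± 0.12 without wild-type bead array 3. For Ctss it was 0.06 ± 0.16, for Cst3 -0.10 ± 0.21 and for Ctsb -0.15 ± 0.22. Leaving out that array gave -0.25 ± 0.14 for Cst3 and -0.31 ± 0.15 for Ctsb, which did not pass either, and -0.04 ± 0.12 for Ctss. The intervals reach to both sides of 0 for all 10.

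**Figure D3:**
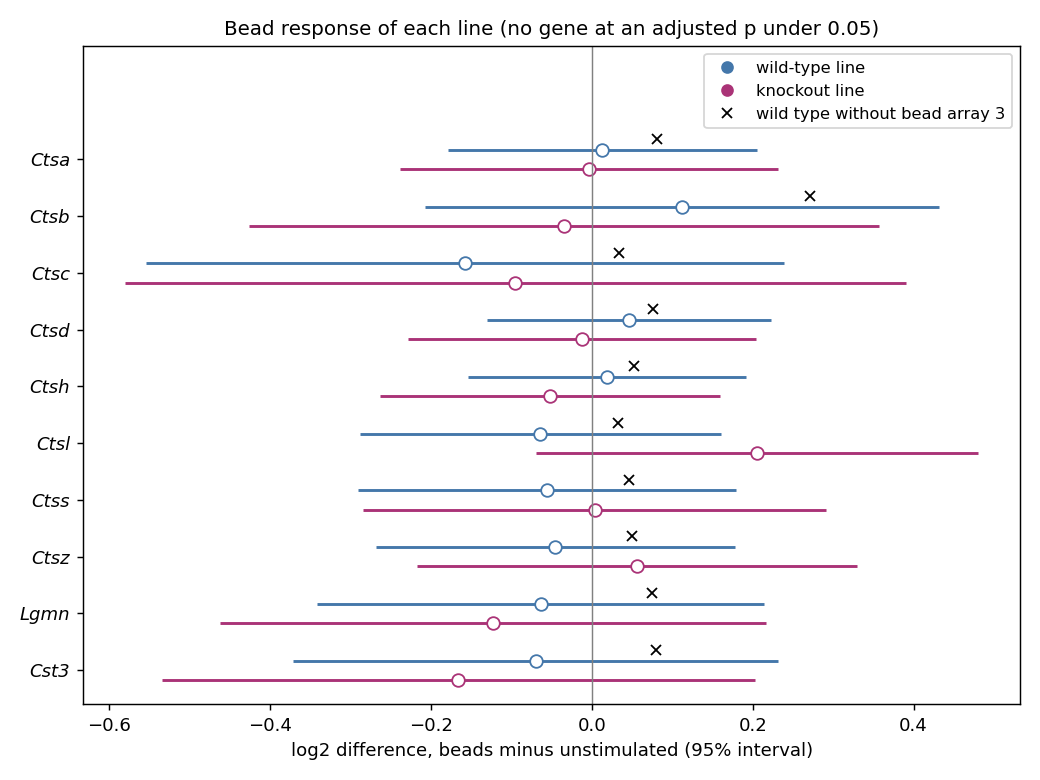
Bead response (beads minus unstimulated, log2 units, horizontal axis) of each of the 10 genes in the wild-type and the knockout line, with the 95% interval of the fit as a line; crosses give the wild-type response without bead array 3. All 20 intervals include 0. Every cross lies above 0, and bead array 3 was the lowest of its group for all 10 genes.

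The proteases and inhibitors closest to the set were counted next, from lists chosen by function. The counts of these and the later lists stand beside the shares over all genes. Without beads 8.25% of all genes passed, 3.79% higher and 4.46% lower, and with beads 7.22%, 3.82% higher and 3.4% lower. Whether any list departs from these shares was not tested. Among 17 measured other cathepsins and related proteases, 1 was higher and 2 lower in the knockout line, without and with beads alike. Ctsk, the collagen-degrading cathepsin of osteoclasts, read 12.06, 12.29 and 12.12 in unstimulated wild type and 7.77 and 7.35 in unstimulated knockout cells. That difference of -4.60 ± 0.15 (adjusted p = 3.25e-07, limma) was larger in size than any in the set and had the opposite sign to those of Ctss and Ctsl. Napsa, the aspartic protease napsin A, was lower (-0.81 ± 0.12). Ctsf, cathepsin F, another invariant chain protease of macrophages, was higher, at 9.09 and 8.94 in unstimulated knockout against 8.22, 8.06 and 8.15 in wild-type cells (0.87 ± 0.12). Ctsk and Ctsf kept their calls in all 19 alternatives in both states, and Napsa in 18 without and 16 with beads; its call with beads ended, among others, without knockout bead array 1.

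Among 17 measured cystatins and other inhibitors, 1 was higher and 2 lower in each comparison. Cst7, cystatin F, an inhibitor that is carried to lysosomes and acts on cathepsin C among others, was lower in the knockout line, where Cst3 was higher. It read 8.02, 8.28 and 7.97 in unstimulated wild type and 5.83 and 6.06 in knockout cells, a difference of -2.15 ± 0.15 without (adjusted p = 2.53e-05, limma) and -2.16 ± 0.15 with beads. Serpinb1a, an inhibitor of neutrophil serine proteases, was lower too (-1.22 ± 0.16), with a call in 19 of 19 alternatives without and 16 with beads. Serpinb6a was higher (0.86 ± 0.22), but it kept its call in 11 of 19 alternatives without and 12 with beads.

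Of 11 lysosomal peptidases and associated hydrolases, 2 were higher and 1 lower without beads, and 1 was higher and 1 lower with beads. Cpq, a secreted and lysosomal carboxypeptidase, was at 1.40 ± 0.15 and Prcp, a lysosomal prolylcarboxypeptidase, at 0.72 ± 0.16. Neu1, the sialidase that binds Ctsa, was at -0.50 ± 0.12. Neu1 kept its call in 12 of 19 alternatives without and 7 with beads, Prcp in 14 without beads, and Cpq in all 19 in both states.

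Of 17 measured genes of the route that carries these enzymes to the lysosome, 3 were lower and 0 higher without beads. With beads 2 were lower and 0 higher. Of all genes, 4.46% were lower and 3.79% higher without beads, and 3.4% lower and 3.82% higher with beads. Igf2r, the large mannose 6-phosphate receptor, read 8.97, 9.22 and 8.96 in unstimulated wild type and 6.69 and 6.86 in unstimulated knockout cells (-2.28 ± 0.18, adjusted p = 5.56e-05 in limma, and -1.96 ± 0.18 with beads). Sort1, sortilin, a further sorting receptor, read 7.46, 7.79 and 7.55 against 5.70 and 5.60 (-1.95 ± 0.18, and -1.92 ± 0.18 with beads). Gga2, an adaptor for both, was at -0.51 ± 0.11 without beads, with a call in 13 of 19 alternatives, and -0.30 ± 0.11 with beads, which did not pass. The median of this list was -0.15 without and -0.07 with beads, against 0.02 and -0.01 over all genes. The other mannose 6-phosphate receptor gene, M6pr, was not analysed here.

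Of 12 lysosome transcription factors and nutrient-sensing regulators, 1 was higher and 1 lower without beads, and 2 were higher and 1 lower with beads. Tfe3, a TFEB relative that binds the CLEAR element, was at 0.56 ± 0.13, with a call in 14 of 19 alternatives without and 10 with beads. Rragd, a Rag GTPase of the mTORC1 pathway, read 7.53, 7.66 and 7.40 in unstimulated wild type and 5.59 and 5.57 in knockout cells (-1.95 ± 0.24). Rptor, the mTORC1 subunit raptor, was the other gene higher with beads (0.50 ± 0.12, and 0.07 ± 0.12 without beads); it falls outside the naming rule and was chosen after its values were seen.

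Among 13 genes of endosomal Toll-like receptors, the invariant chain and their partners, 4 were higher and 1 lower without beads. With beads 2 were higher and 1 lower. Cd74, the invariant chain that Ctss cuts, read 9.58, 9.29 and 9.32 in unstimulated wild type and 11.60 and 11.30 in unstimulated knockout cells (2.05 ± 0.26, and 2.07 ± 0.26 with beads). The MHC class II genes of this list did not pass in either state. H2-Aa (4.12 to 4.45), H2-Ab1 (5.18 to 5.46) and H2-DMa (4.69 to 5.06) read below the median of every array. They were named after their values were seen. Unc93b1, which escorts endosomal Toll-like receptors from the endoplasmic reticulum, was higher in both states (0.68 ± 0.11 and 0.59 ± 0.11); it too was chosen after its values were seen. The endosomal receptors Tlr13 (0.89 ± 0.22) and Tlr8 (0.86 ± 0.22) were higher without beads, in 10 and 9 of 19 alternatives. With beads Tlr13 was at 0.82 ± 0.22, about as large, but did not pass (adjusted p = 0.0617, limma). Tlr8 was then at -0.17 ± 0.22, with the opposite sign, and did not pass; its bead responses differed between the lines by -1.04 ± 0.31, which did not pass either (adjusted p = 1, limma). Hsp90b1, the chaperone that folds Toll-like receptors, was lower (-0.70 ± 0.15), with a call in 14 of 19 alternatives without and 8 with beads. In the bead comparisons of each line, 0 genes of these 6 lists passed in limma.

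**Figure D4:**
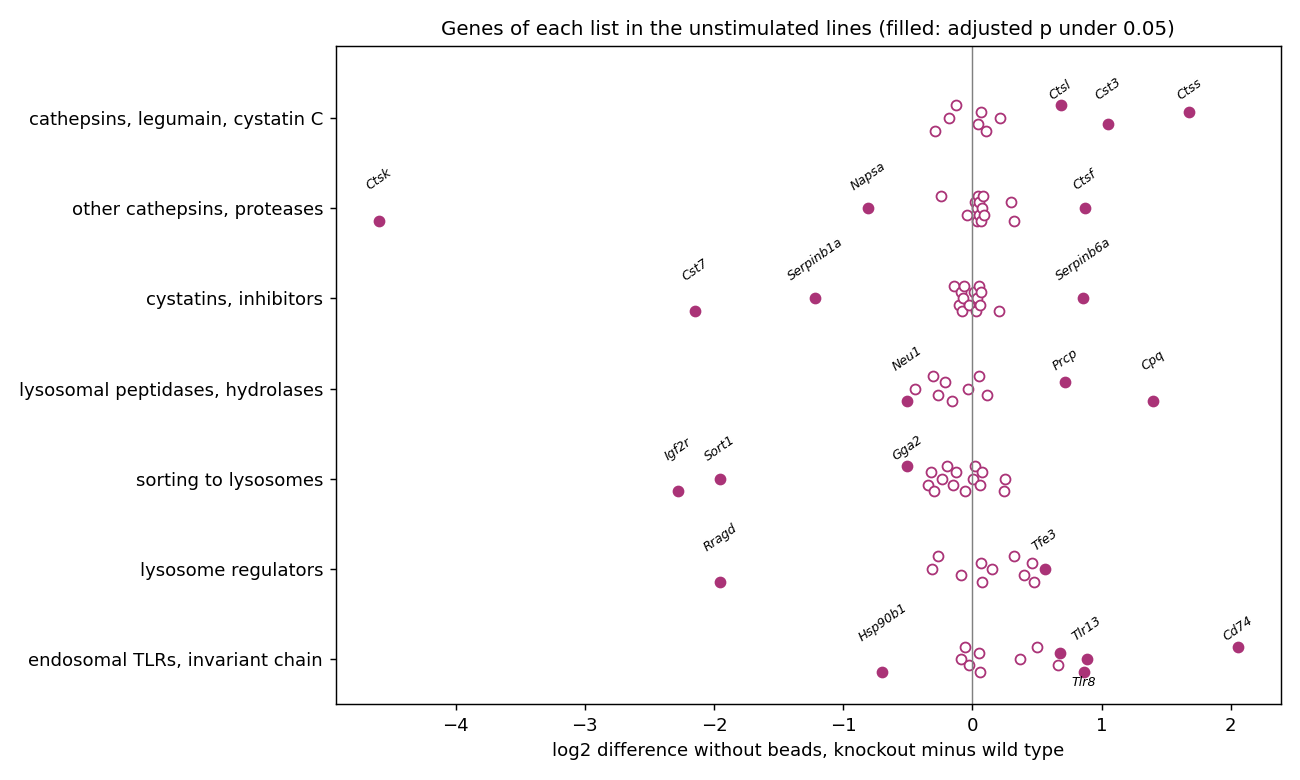
Difference between the unstimulated lines (knockout minus wild type, log2 units, horizontal axis) for every measured gene of the set and of the 6 related lists, 1 row a list; filled points passed, and the passing genes but Unc93b1 are labelled. Ctsk at -4.60 lies farthest from 0, and each list but that of the sorting genes and that of the set holds genes that passed on both sides.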

How the data were processed

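RNA of 10 samples of immortalized mouse macrophages was measured on Affymetrix arrays. The deposited table holds log2 signals per probe set, which the authors made with RMA per the submitters' processing notes; no source used here gives its software, version or annotation. The arrays do not share 1 distribution: medians over probe sets ran from 5.75 to 6.10, and SDs over genes were 1.75 for wild-type bead array 3 and 1.86 to 2.00 for the others. Whether all 10 were normalised together is unknown. Of 28853 probe sets, 21789 carried 1 symbol in the platform annotation, and each of 19938 genes was represented by its brightest probe set on average. None was removed for low signal. A model with 4 group means was fitted with limma 3.58.1 in R 4.3.3 (lmFit, eBayes; 6 residual and 3.23 prior degrees of freedom), two-sided. Number of arrays limits the precision. Named genes were all 10 of the set and, per related list, up to 4 with the largest passing difference without beads. The genes, lists and tests were chosen with earlier results of these data known. The fit was tested on simulated data. No paired analysis was possible because array titles carry no number common to the groups. Promoters are RefSeq's (GRCm38.p6). The alternatives were centring, quantile normalisation, trended or robust eBayes, array weights, a low-signal filter, the median of probe sets, fits of the compared groups alone, and leaving out each array. The overlap counts without wild-type bead array 3 were chosen after seeing the data.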

Additional observations from a re-analysis of the deposited data

How the results depend on the processing

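Of the 10 genes, 3 passed in each comparison of the lines. Over 19 alternatives this count ran from 2 to 5 without beads and from 2 to 4 with beads (2 to 3 with an array left out); quantile normalisation gave 5 without beads, adding Ctsd and Ctsz as lower, and the cause was not tested. In the wild-type bead comparison array weights gave 4 in place of 0, turning the sign of Lgmn (0.16) and Cst3 (0.19), and the cause was not tested. The count was 0 under every alternative in the knockout bead comparison and the interaction. Where a knockout array was left out, the lone array was assumed to vary like the other groups. Of the values of single genes under alternatives, 922 kept their outcome, passing or not, 5 lost a call, 6 gained one and 2 passed with the sign turned. A sign that turned where neither fit passed counts as kept. Among all genes, 1645 passed without beads, against 772 after median centring, 2481 after quantile normalisation, 4451 with array weights, 3262 in the compared groups alone and 681 to 3668 with an array left out. With beads, 1439 passed, against 734, 2283, 6083, 480 and 597 to 4171. Array weights gave 9174, 16 and 9 in place of 0 in the wild-type, knockout and interaction tests of the beads, quantile normalisation 5 in the knockout one, and leaving out wild-type bead array 3 gave 17 and 1 in the last pair. Ctsh could not be tested after the low-signal filter.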
